A study of Homo sapiens with 50 samples.

Results

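The 5 arrays described here, of 50 in the series, compare A549 cells without and with serine shortly after a vehicle was added. A549 is a human lung adenocarcinoma line. The group without serine held 3 arrays (title numbers 54, 55 and 56) of cells kept in BME with non-essential amino acids but no serine and collected 1.5 h after DMSO. The group with serine held 2 arrays (49 and 50) of cells in the same medium with serine, also collected 1.5 h after DMSO. The arrays were chosen by their labels alone. All these cells had been grown in RPMI and moved to BME 24 h before DMSO, so those without serine had lacked it for just over a day at collection. Both groups therefore share the change of medium and the vehicle. The comparison asks how gene expression differed without serine 1.5 h after DMSO, about a day after the change of medium. The 0 h arrays had already spent 24 h in the media, and for some genes the effect there differed, as given below. The cells are the vehicle controls of an experiment on compound 16, an activator of the glycolytic enzyme pyruvate kinase M (PKM). For setting beside it, the series has the same pair of media under 1 uM compound 16 at 1.5 h (3 arrays each), in DMSO at 0, 6 and 24 h (3 arrays each), and cells before the change of medium (3 arrays). Separate cultures are not named for the arrays of a group, so p-values measure only the spread between arrays, which may be technical. A549 is 1 line, and the title numbers run group by group, so medium and the order of the numbers cannot be told apart.

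Signals are RMA values on a log2 scale, where a difference of 1 is a doubling. Array medians lay between 5.40 and 5.54, and the lowest signal was 3.36, so genes near 5 are dim and their changes are compressed. Epithelial markers of A549 stood at 9.76 to 14.35 without serine and 9.57 to 14.41 with serine. Fibroblast markers stood at 4.09 to 4.78 without serine and 4.15 to 4.90 with serine, endothelial ones at 4.36 to 5.13 and 4.34 to 5.03, and leukocyte ones at 4.02 to 6.14 and 4.17 to 6.10; alveolar type 2 markers stood at 3.89 to 5.04 and 3.91 to 5.14. None of these markers was called. Of the leukocyte markers, LYZ, which epithelium can also express, averaged 6.14 without serine and 5.33 with serine (0.82, adjusted p = 0.111); its part in the results was not tested. The gap between the 3′ and 5′ probe sets of ACTB, a measure of RNA integrity, was 1.11, 1.18 and 1.33 on the arrays without serine (54, 55 and 56), against 1.08 and 1.02 on those with serine (49 and 50). It thus moved with the medium, and its part in the results was not tested beyond leaving out array 56, which is given below. Under compound 16 at 1.5 h the gap was 1.08, 1.17 and 1.14 without serine, against 1.02, 1.04 and 1.02 with serine. In DMSO at 0 h it was 1.21, 1.04 and 1.16 without serine, against 1.38, 1.19 and 1.08 with serine.

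Serine is made from glycolytic 3-phosphoglycerate by PHGDH, PSAT1 and PSPH, or taken up, and feeds glycine, one-carbon units, cysteine and glutathione. When an amino acid runs short, uncharged tRNA activates the kinase GCN2, which phosphorylates eIF2alpha and raises translation of the transcription factor ATF4. ATF4, with partners such as DDIT3, induces genes of amino acid synthesis, uptake and tRNA charging. A separate sensor, the aryl hydrocarbon receptor (AHR), binds small aromatic molecules, tryptophan products among them, and induces CYP1B1 and TIPARP.

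Promoters are shown for 5 of the genes described below, as the 250 bases before the start of transcription in RefSeq (GRCh38.p14), written 5′ to 3′ on the gene's own strand. Capitals mark a match to the ATF4 composite element TGATGNAA in the first 3, to the AHR core GCGTG in the fourth and to the cell cycle homology region TTTGAA in the last, on either strand. CHAC1 rose while ASNS and AARS1 fell, TIPARP is an AHR target that fell, and PLK1 is 1 of the mitotic genes that fell. The calls of ASNS, AARS1 and PLK1 were each lost in some of the fits with 1 array left out.
CHAC1, chr15:40953221-40953470, plus strand: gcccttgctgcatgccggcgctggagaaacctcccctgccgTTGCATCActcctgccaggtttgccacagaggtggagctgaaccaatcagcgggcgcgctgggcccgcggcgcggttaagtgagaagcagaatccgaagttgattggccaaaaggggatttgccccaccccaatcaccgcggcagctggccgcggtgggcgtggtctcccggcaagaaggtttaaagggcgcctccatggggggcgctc
ASNS, chr7:97872409-97872658, minus strand: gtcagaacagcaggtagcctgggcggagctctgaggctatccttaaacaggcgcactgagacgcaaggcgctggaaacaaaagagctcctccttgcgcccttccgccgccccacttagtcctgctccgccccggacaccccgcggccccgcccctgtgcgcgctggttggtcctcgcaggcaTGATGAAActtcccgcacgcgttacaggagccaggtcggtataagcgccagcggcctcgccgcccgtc
AARS1, chr16:70289507-70289756, minus strand: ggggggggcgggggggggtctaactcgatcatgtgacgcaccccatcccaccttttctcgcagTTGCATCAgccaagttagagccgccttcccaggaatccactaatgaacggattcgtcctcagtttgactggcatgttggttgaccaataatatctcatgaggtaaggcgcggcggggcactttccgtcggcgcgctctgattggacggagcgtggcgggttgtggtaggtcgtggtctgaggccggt
TIPARP, chr3:156674340-156674589, plus strand: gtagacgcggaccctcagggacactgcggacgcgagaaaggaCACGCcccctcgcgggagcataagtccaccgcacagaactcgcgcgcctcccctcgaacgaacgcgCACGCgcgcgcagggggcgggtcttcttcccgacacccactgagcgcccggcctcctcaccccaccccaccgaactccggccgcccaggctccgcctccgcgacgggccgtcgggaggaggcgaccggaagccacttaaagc
PLK1, chr16:23678639-23678888, plus strand: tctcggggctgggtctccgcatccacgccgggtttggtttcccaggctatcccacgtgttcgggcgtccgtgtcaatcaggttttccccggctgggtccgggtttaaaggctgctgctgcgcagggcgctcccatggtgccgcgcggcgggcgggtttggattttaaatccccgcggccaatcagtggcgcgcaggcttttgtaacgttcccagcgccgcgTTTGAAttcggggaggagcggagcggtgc
The first match begins 209 bases before the start in CHAC1, 68 in ASNS, 187 in AARS1, 208 in TIPARP, whose second lies 142 before it, and 29 in PLK1. No entry was found for CYP1B1. None of the 3 motifs contains another, and the search ran from 250 bases before to 50 after the start. A match is a description of the letters, not a bound site.

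Without serine, 191 of 18239 genes were higher and 169 lower (adjusted p under 0.05, limma), or 1.05% and 0.927% of the genes tested. Each count of list members called at 1.5 h in DMSO below is to be set against these shares. Few changes were large: 8 of the higher genes and 1 of the lower reached a doubling or halving. The median difference over all genes was 0.01 and the median standard error 0.14. At an unadjusted p under 0.05 there were 2047 genes. The count rests on the small group with serine: 84 genes were called without array 49 and 101 without array 50, against 188 without array 54, 257 without array 55 and 233 without array 56. Where array 49 or 50 is left out, the lone array with serine is assumed to vary like the other groups. From these 5 arrays alone 1 gene was called, from the arrays of 1.5 h alone 91, and with array weights 631. With each array centred on its median the split was 147 higher and 196 lower. Of 94 named genes called, 73 stayed called with the mean of all probe sets of a gene in place of the brightest.

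The response to amino acid lack was split. Several stress genes were higher without serine, while some genes for making, importing and charging amino acids were lower, and most members of either kind were not called. DDIT3 (CHOP), a transcription factor that prolonged stress signalling induces and that can promote cell death, had signals of 7.37, 7.15 and 6.94 without serine (arrays 54, 55 and 56), against 5.82 and 5.93 with serine (arrays 49 and 50). All 3 arrays without serine lay above both arrays with serine, and DDIT3 was 2.42-fold higher (1.28 ± 0.22 on the log2 scale, SE, adjusted p = 0.000442). With so few arrays, the groups of an unchanged gene can also lie apart by chance. Here and below, groups without overlap therefore only describe the signals, and calls rest on the adjusted p. CHAC1, an enzyme that degrades glutathione, had signals of 6.76, 6.63 and 6.94 without serine against 5.59 and 5.44 with serine. The groups did not overlap, and CHAC1 rose by 1.26 ± 0.18 (2.39-fold, adjusted p = 3.43e-05). With serine it stood near the array medians, so it was dim there.

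SESN2, a leucine sensor that restrains mTORC1, the kinase complex that drives growth, had signals of 7.64, 7.62 and 7.60 without serine, against 6.71 and 6.83 with serine. The 3 arrays without serine were tightly grouped above both others, and SESN2 rose by 0.85 ± 0.13 (1.80-fold, adjusted p = 0.000106). DDIT4 (REDD1), another brake on mTORC1, rose less, by 0.35 ± 0.08 (adjusted p = 0.0103). Of 9 mTORC1 brakes these 2 were higher and 0 lower (median 0.18, against 0.01 over all genes). NIBAN1, a stress gene of the pathway, rose by 0.74 ± 0.18 (adjusted p = 0.0218). DDIT3, CHAC1 and SESN2 were called whichever of the 5 arrays was left out; DDIT4 was lost without array 50 or 55 and NIBAN1 without array 49, 50, 55 or 56, as well as with the mean of its probe sets (0.38, adjusted p = 0.0584).

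ATF4 itself had signals of 13.21, 13.20 and 13.18 without serine against 12.99 and 13.11 with serine. The groups did not overlap, but the difference of 0.15 ± 0.06 was not called (adjusted p = 0.250). TRIB3, a pseudokinase induced by ATF4 and DDIT3, differed by 0.05 ± 0.08 (adjusted p = 0.918) and ATF3 by 0.08 ± 0.16 (adjusted p = 0.930). For both, the arrays of the media overlapped. Of the 8 genes for eIF2alpha, its kinases and its phosphatase, 0 were called by limma and 0 had an unadjusted p under 0.05.

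The lower side of the list began with ASNS, asparagine synthetase, a standard ATF4 target. Its signals were 11.37, 11.56 and 11.46 without serine, against 11.81 and 11.84 with serine. All 3 arrays without serine lay below both others, and ASNS fell by 0.36 ± 0.07 (adjusted p = 0.00351). CTH, which makes cysteine from cystathionine, fell by 0.58 ± 0.15 (adjusted p = 0.0243), and NUPR1, a chromatin-associated stress protein, by 0.49 ± 0.13 (adjusted p = 0.0437). Of 27 measured genes of the amino acid response, 5 were thus higher and 3 lower, with a median of 0.05. The 3 falls were not called without array 49 or 50, where ASNS reached adjusted p = 0.0903; CTH was lost whichever array was left out, and NUPR1 also without array 55 or 56.

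CBS, the enzyme that joins serine to homocysteine and so consumes serine, had signals of 9.20, 9.34 and 9.36 without serine against 10.02 and 9.95 with serine. The arrays without serine all lay lower, and CBS fell by 0.69 ± 0.09 (1.61-fold, adjusted p = 4.91e-06). It was called whichever array was left out. Of the 3 enzymes of serine synthesis, PSAT1 fell by 0.39 ± 0.09 (adjusted p = 0.0124). PHGDH, the first enzyme, differed by 0.07 ± 0.09 (adjusted p = 0.884), and PSPH by -0.18 ± 0.07 (adjusted p = 0.200). PSAT1 was lost without array 49, 50 or 54, and all 8 of its probe sets were lower without serine. Among 22 genes of one-carbon and glycine metabolism 1 was lower, GGH (-0.32 ± 0.09, adjusted p = 0.0484), which removes glutamates from folates. SHMT2 (-0.06 ± 0.08), which splits serine in mitochondria, and MTHFD2 (-0.12 ± 0.07), the next folate enzyme, were not called.

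Aminoacyl-tRNA synthetases load amino acids onto tRNA. Of 19 cytosolic ones, 5 were lower, 0 higher, and the median was -0.07. MARS1, for methionine, had signals of 10.12, 10.18 and 10.15 without serine against 10.58 and 10.59 with serine. The groups were well separated, and MARS1 fell by 0.43 ± 0.07 (adjusted p = 0.000393). AARS1 fell by 0.38 ± 0.09, CARS1 by 0.34 ± 0.07, GARS1 by 0.32 ± 0.07 and TARS1 by 0.29 ± 0.07. SARS1, which charges tRNA with serine, differed by 0.03 ± 0.07 (adjusted p = 0.962). Averaged over all its probe sets, MARS1 stood at -0.06 (adjusted p = 0.844) and was not called. The count was 2 without array 49, 1 without array 50, 4 without array 54, 5 without array 55 and 3 without array 56. MARS1 was in each of them.

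Among 20 amino acid transporters, 3 were lower and 1 higher, with a median of -0.08. SLC7A1, a carrier of cationic amino acids, had signals of 8.58, 8.62 and 8.56 without serine against 9.11 and 8.98 with serine. The groups did not overlap, and SLC7A1 fell by 0.46 ± 0.07 (adjusted p = 0.000104). SLC7A5 (-0.39 ± 0.08), the light chain of the LAT1 exchanger, and SLC1A5 (-0.31 ± 0.08), a carrier of glutamine and serine, also fell. SLC38A2, a sodium-coupled carrier of small neutral amino acids, went the other way and rose by 0.32 ± 0.06 (adjusted p = 0.00252). SLC7A1 was called whichever array was left out, but averaged over all its probe sets it stood at -0.20 (adjusted p = 0.256) and SLC38A2 at 0.20 (adjusted p = 0.514), neither called. SLC7A5 was lost without array 49 or 50, SLC38A2 without array 50, and SLC1A5 without 49, 50, 55 or 56.

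The ATF4 composite element was found in 4.46% of 27305 RefSeq genes with a window. It was present in 7 of 16 synthetases with a window, which include all 5 that fell (AARS1, CARS1, GARS1, MARS1 and TARS1). It was present in 5 of 17 transporters and 6 of 23 genes of the amino acid response, both CHAC1 and ASNS among the latter. By direction, 5 of 153 genes called higher held it (3.27%) and 14 of 142 called lower (9.86%). The 14 include the 5 synthetases named above and ASNS, SLC1A5 and SLC7A1, so this split is not separate from the lists.

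**Figure D1:**
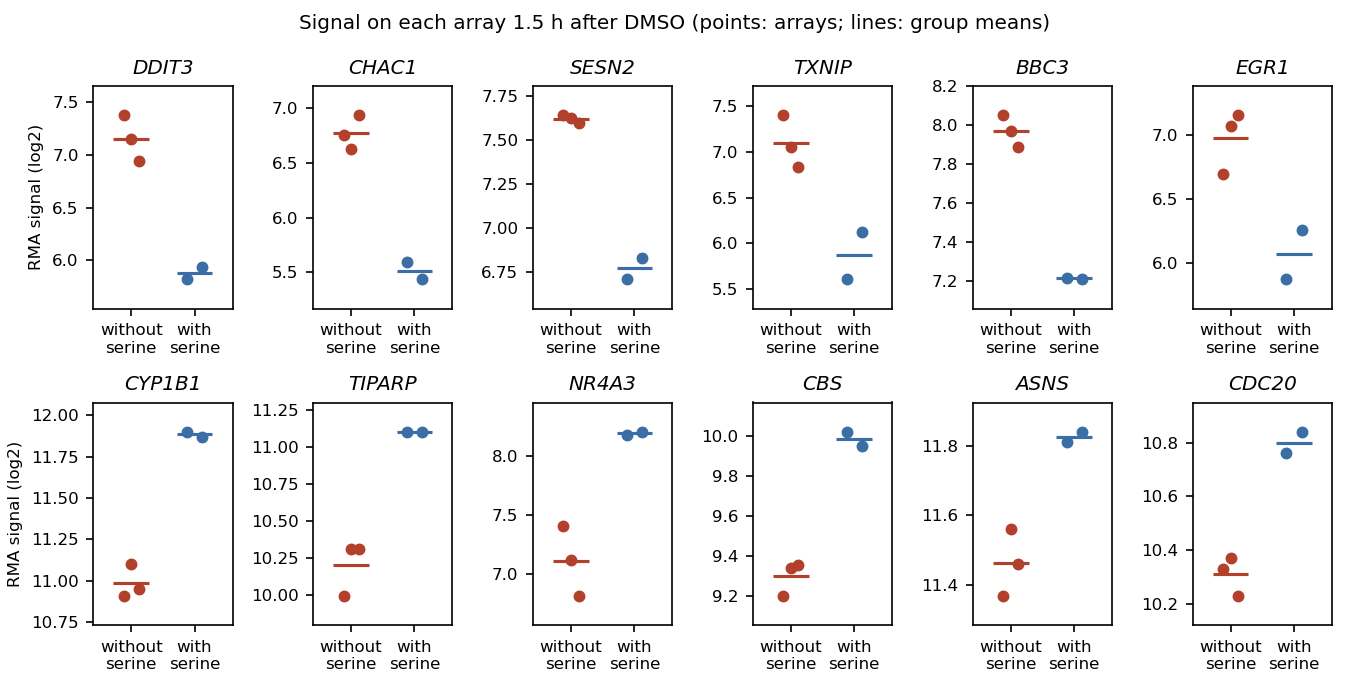
RMA signal (log2, vertical axis) of 12 genes on each array collected 1.5 h after DMSO, with the 3 arrays without serine on the left of each panel and the 2 with serine on the right; lines are group means. In none of the 12 panels do the groups overlap, which with so few arrays can also happen by chance for an unchanged gene. The 12 genes were picked from those called, so separate groups were likely beforehand, and the share of all genes without overlap was not counted. The vertical scale differs from panel to panel (DDIT3 spans 5.82 to 7.37, ASNS 11.37 to 11.84).

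CBS and ASNS, which fell at 1.5 h, were higher without serine at 6 h. At 0 h, after 24 h in the media, CBS differed by -0.69 ± 0.08 and ASNS by -0.41 ± 0.07 in DMSO. At 6 h CBS was higher without serine by 0.38 ± 0.08 (adjusted p = 0.00275) and ASNS by 0.35 ± 0.07 (adjusted p = 0.000831). At 24 h both were lower, CBS by -0.77 ± 0.08 and ASNS by -0.49 ± 0.07.

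Over whole lists the counts at each time were as follows. Of the 19 synthetases, 0 were higher and 7 lower at 0 h, 0 and 5 at 1.5 h, 8 and 0 at 6 h, and 0 and 3 at 24 h, when 2.99% and 2.91%, 1.05% and 0.927%, 1.75% and 1.43%, and 0.0877% and 0.0713% of all genes were called higher and lower. In either direction that is 5.9% at 0 h, 1.97% at 1.5 h, 3.18% at 6 h and 0.159% at 24 h. Of the 27 genes of the amino acid response, 1 was higher and 13 lower at 0 h, 5 and 3 at 1.5 h, 13 and 0 at 6 h, and 0 and 3 at 24 h. Their medians were -0.20, 0.05, 0.38 and -0.13, so at 1.5 h this list was not lower as CBS and ASNS were. The 4 times use separate arrays.

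Tests of the difference in effect between times rest on the same 5 arrays as the comparison above. Between 1.5 h and 6 h the effect differed for 27 genes (0.148%), for 25 of them lower at 1.5 h (0.137%) and for 2 higher (0.011%). CARS1 led, with an effect of -0.34 ± 0.07 at 1.5 h and 0.66 ± 0.06 at 6 h, a difference of -1.0 ± 0.10 (adjusted p = 3.73e-08). The 25 include 6 synthetases, the transporters SLC7A1, SLC1A5 and SLC1A4, and MTHFD2, CBS, PSAT1, PSPH, ASNS, TRIB3 and ATF4. TRIB3 differed by -1.01 ± 0.11 (adjusted p = 1.19e-07), with an effect of 0.05 at 1.5 h and 1.05 at 6 h.

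Between 1.5 h and 0 h the effect differed for 15 genes (0.0822%), 10 with a higher effect at 1.5 h (0.0548%) and 5 with a lower one (0.0274%). CHAC1 had an effect of 1.26 at 1.5 h and -0.55 at 0 h, a difference of 1.81 ± 0.24 (adjusted p = 6.37e-05). Other stress genes among the 10 were DDIT3 (1.66 ± 0.29), SESN2 (1.03 ± 0.17), BBC3 (0.58 ± 0.11), DDIT4 (0.52 ± 0.11) and ATF4 (0.41 ± 0.08). STC2, a secreted glycoprotein of the stress response, differed by 1.71 ± 0.25 (adjusted p = 0.000235): its effect was -1.18 at 0 h, 0.54 at 1.5 h, where it was not called, and 1.97 at 6 h. For CBS and ASNS the effect at 1.5 h minus that at 0 h was 0.00 ± 0.12 and 0.05 ± 0.10, within its error.

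**Figure D2:**
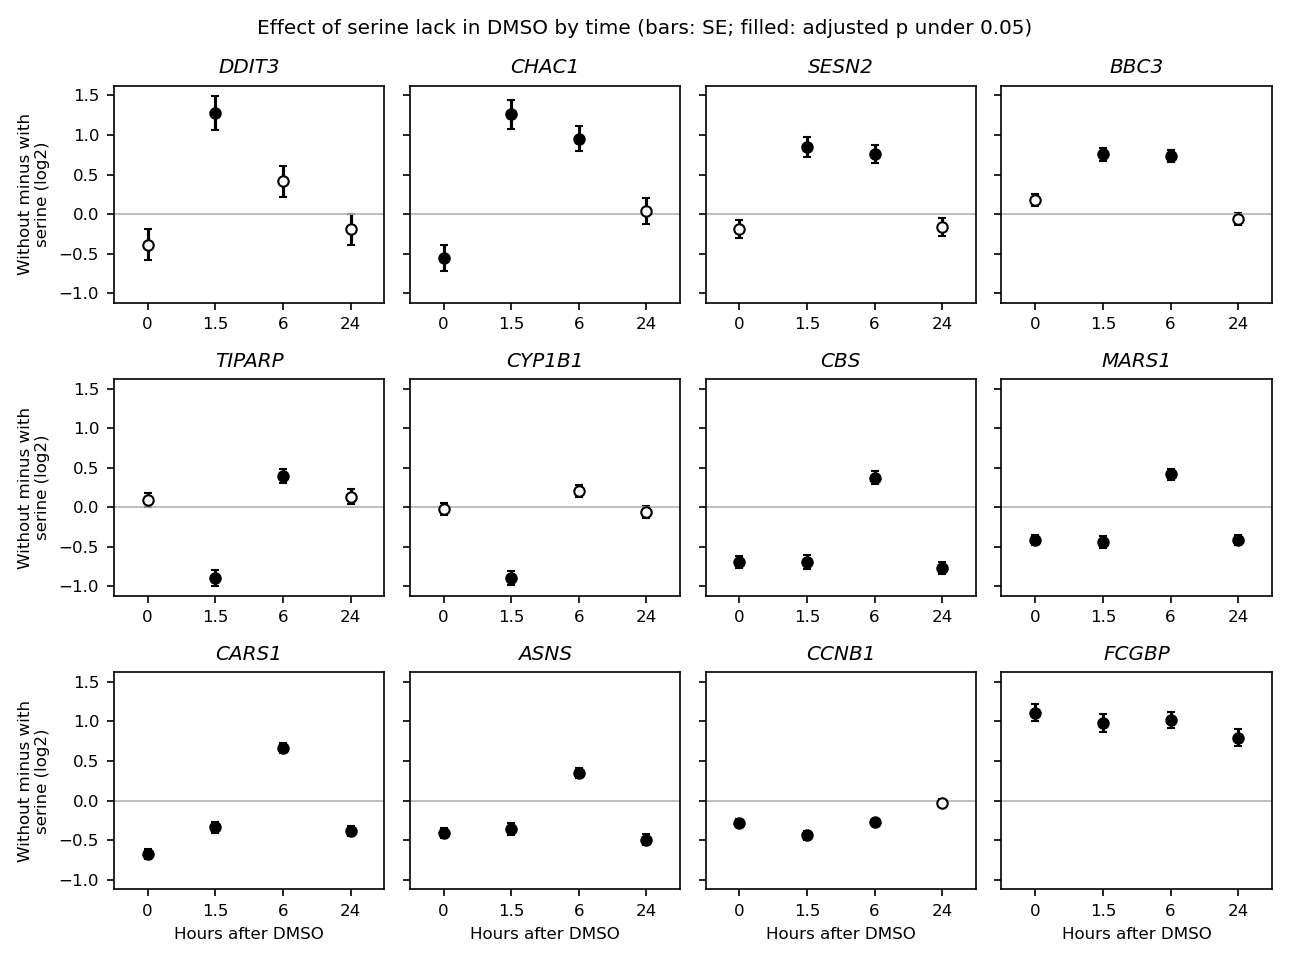
Difference between media in DMSO, without minus with serine (log2, vertical axis), for 12 genes at 0, 1.5, 6 and 24 h (horizontal axis, evenly spaced); points are fitted differences, bars standard errors, and filled points have an adjusted p under 0.05. The effects for DDIT3, CHAC1, SESN2 and BBC3 are higher at 1.5 h than at 0 h, but their differences between 1.5 h and 6 h were not called. TIPARP and CYP1B1 dip at 1.5 h alone. CBS, MARS1, CARS1 and ASNS are above 0 at 6 h only, and FCGBP stays near 1 at all 4 times.

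Among AHR targets, CYP1B1 and TIPARP fell by nearly the same amount. CYP1B1, a cytochrome P450 that oxidizes aromatic compounds and oestrogens, had signals of 10.91, 11.10 and 10.95 without serine (arrays 54, 55 and 56), against 11.90 and 11.87 with serine (arrays 49 and 50). The 3 arrays without serine lay well below both others, and CYP1B1 fell by 0.90 ± 0.09 (1.86-fold, adjusted p = 2.38e-08). Of its 5 probe sets 4 were lower, within a range of -1.23 to 0.06.

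TIPARP, a mono-ADP-ribosyltransferase that restrains the AHR, had signals of 10.00, 10.31 and 10.31 without serine against 11.10 and 11.10 with serine. Again the groups were separate, and TIPARP fell by 0.89 ± 0.10 (1.86-fold, adjusted p = 5.95e-07), with both probe sets lower. Neither gene lost its call when any 1 array was left out. ALDH1A3, which makes retinoic acid, fell by 0.57 ± 0.15 (adjusted p = 0.0393) and was lost without array 49, 50, 54 or 55.

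Of 18 measured AHR targets, 4 were lower and 0 higher, the fourth being SLC7A5, which is also a transporter; the median was -0.13. CYP1A1, the best known target, stood at 4.36, 4.40 and 4.30 without serine and 4.53 and 4.53 with serine, near the lowest signals, and its difference of -0.18 ± 0.18 was not called. AHRR, a repressor of the receptor, was also dim (-0.23 ± 0.26). NQO1 differed by -0.06 ± 0.05 (adjusted p = 0.806). The receptor AHR (0.09 ± 0.11) and its partner ARNT (-0.12 ± 0.18) were not called, nor was any other of 6 genes for the receptor and its partners (1 had an unadjusted p under 0.05). The AHR core is short: 40.6% of genes hold it, and it was present in 10 of 13 targets with a window, TIPARP included, but also in 13 of 16 synthetases. By direction, 70 of 153 genes called higher held it (45.8%) and 92 of 142 called lower (64.8%).

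The 2 genes moved in time in both media. CYP1B1 averaged 9.80 ± 0.05 at 0 h, 10.99 ± 0.10 at 1.5 h, 11.08 ± 0.03 at 6 h and 9.57 ± 0.09 at 24 h without serine (SD, n = 3). With serine it averaged 9.81 ± 0.06, 11.88 ± 0.02, 10.87 ± 0.06 and 9.63 ± 0.24 (n = 3, but 2 at 1.5 h). Before the change of medium it stood at 11.85 ± 0.04. The 1.5 h level with serine was thus near that in the growth medium, and the one without serine was below it.

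TIPARP averaged 8.95 ± 0.15, 10.21 ± 0.18, 9.22 ± 0.07 and 8.74 ± 0.12 without serine at the same times, against 8.86 ± 0.06, 11.10 ± 0.00, 8.82 ± 0.10 and 8.61 ± 0.11 with serine, and 11.80 ± 0.07 before the change of medium. Of the 4 times in DMSO, it was highest at 1.5 h in both media. The effect of serine lack at 1.5 h differed from that at 0 h by -0.98 ± 0.14 (adjusted p = 8.36e-05) for TIPARP and -0.88 ± 0.12 (adjusted p = 6.37e-05) for CYP1B1. It differed from that at 6 h by -1.29 ± 0.14 (adjusted p = 8.58e-08) and -1.10 ± 0.12 (adjusted p = 9.77e-08). At 6 h TIPARP was higher without serine, by 0.40 ± 0.09 (adjusted p = 0.00666).

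**Figure D3:**
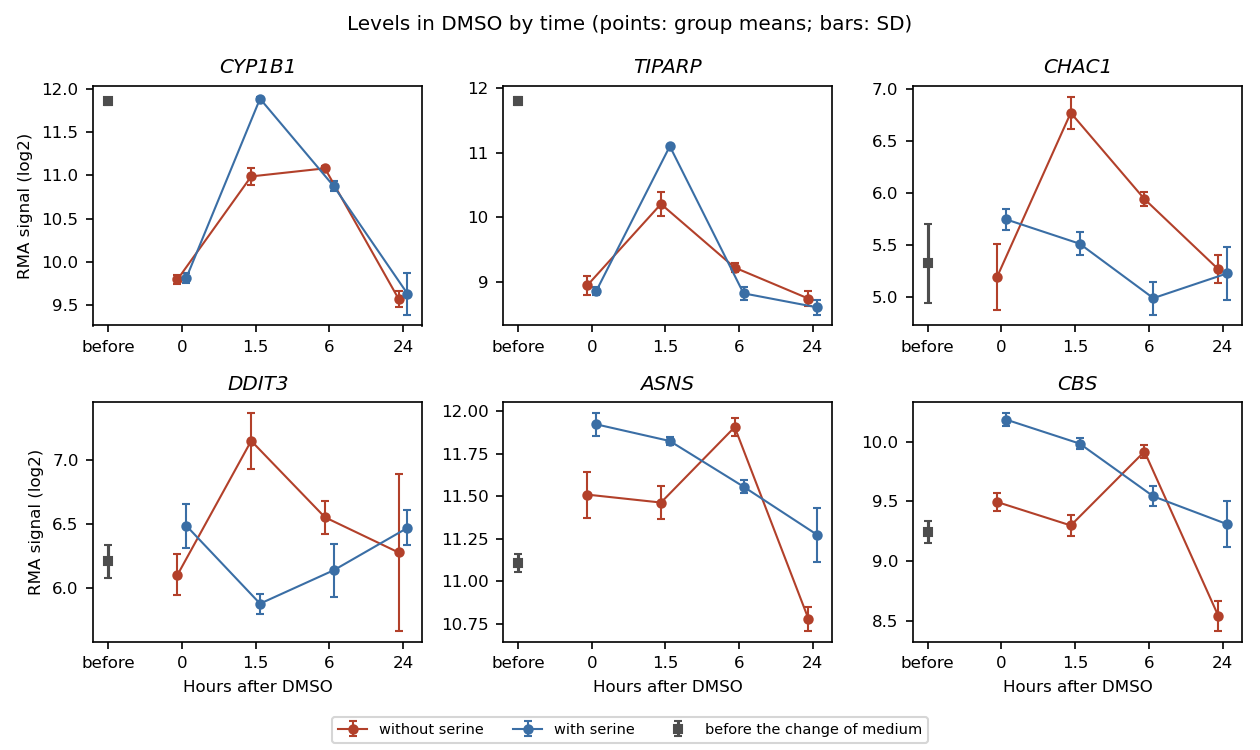
RMA signal (log2, vertical axis) of 6 genes in DMSO at 0, 1.5, 6 and 24 h without and with serine, and before the change of medium (horizontal axis, evenly spaced); points are group means and bars standard deviations (n = 3, or 2 with serine at 1.5 h). CYP1B1 and TIPARP coincide at 0 h and part at 1.5 h, when TIPARP stands at 10.21 without serine and 11.10 with serine, while CHAC1 without serine is highest at 1.5 h (6.77).

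Of the 28 lists examined, that of mitosis had the most lower genes. Of 24 measured genes of mitosis, 18 were lower and 0 higher, when 0.927% of all genes were called lower and 1.05% higher. The median was -0.33, against 0.01 over all genes, and all 24 differences were below 0. CDC20, which activates the anaphase-promoting complex, had signals of 10.33, 10.37 and 10.23 without serine against 10.76 and 10.84 with serine. The groups were separate, and CDC20 fell by 0.49 ± 0.07 (adjusted p = 2.12e-05). CCNB1, the mitotic cyclin, fell by 0.44 ± 0.05 (adjusted p = 3.69e-06), NUSAP1, a spindle protein, by 0.54 ± 0.08 (adjusted p = 0.000121), and PLK1, a mitotic kinase, by 0.58 ± 0.14 (adjusted p = 0.0199). TROAP, a spindle-associated protein outside the list, fell by 0.69 ± 0.09 (adjusted p = 1.39e-05). In RNA from whole cultures, fewer cells in mitosis and less of these mRNAs per cell cannot be told apart.

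Genes of S phase, which copy DNA, had fewer calls. Of 23, 22 differences were below 0 and 11 had an unadjusted p under 0.05, against 24 of the 24 mitotic genes, but 1 was called lower, GINS2 (-0.39 ± 0.08, adjusted p = 0.00615), a part of the replicative helicase, and the median was -0.18. The difference between the lists was not tested. Without array 49, 50, 54, 55 or 56 the count of lower mitotic genes was 7, 5, 10, 13 or 17. CCNB1, CDC20, NUSAP1 and CCNB2 stayed called in all 5 of these fits, and PLK1 in none. Averaged over all probe sets, PLK1 (-0.36) and CENPF (-0.31) were not called, and TROAP stood at -0.28, still called. The cell cycle homology region was found in 18.2% of all genes with a window and in 12 of 19 mitotic genes, among them CDC20, CDK1, PLK1 and NUSAP1. At 0 h 18 of the 24 were lower, at 6 h 19 and at 24 h 0, with medians of -0.28, -0.30 and -0.01. Of all genes, 2.91%, 1.43% and 0.0713% were called lower at these times.

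Immediate early genes, which cells switch on without new protein, went both ways. Of 29, 3 were higher and 2 lower, with a median of -0.03. EGR1, a zinc finger factor, had signals of 6.70, 7.08 and 7.16 without serine against 5.87 and 6.26 with serine. The groups did not overlap, and EGR1 rose by 0.91 ± 0.24 (adjusted p = 0.0309). FOS, a subunit of AP-1, rose by 0.69 ± 0.16 (adjusted p = 0.0103) and KLF2, a Krüppel-like factor, by 0.59 ± 0.11 (adjusted p = 0.000841).

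NR4A3, an orphan nuclear receptor of the same early class, had signals of 7.40, 7.12 and 6.81 without serine against 8.18 and 8.20 with serine. Every array without serine lay lower, and NR4A3 fell by 1.08 ± 0.17 (2.11-fold, adjusted p = 0.000146), the 1 gene that was at least halved. Of its 3 probe sets 2 were lower (range -1.08 to 0.15). NR4A1 fell by 0.42 ± 0.11 (adjusted p = 0.0343). The mean of all probe sets gave -0.53 for NR4A3, 0.47 for EGR1 and 0.36 for KLF2, all still called. NR4A3 was called whichever array was left out; KLF2 was lost without array 49, FOS without 49, 50 or 56, EGR1 without 49, 50, 55 or 56 and NR4A1 without any one of the 5.

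TXNIP and ARRDC4 are arrestin-like proteins whose genes respond to sugar phosphates, and TXNIP curbs glucose uptake. TXNIP had signals of 7.40, 7.06 and 6.84 without serine against 5.61 and 6.13 with serine. The arrays without serine lay above both others, and TXNIP rose by 1.23 ± 0.26 (2.34-fold, adjusted p = 0.00502), with 5 of 5 probe sets higher (range 0.12 to 1.52, mean 0.72). ARRDC4 stood at 5.97, 5.93 and 6.03 without serine against 5.25 and 5.33 with serine. It too did not overlap, and it rose by 0.69 ± 0.13 (adjusted p = 0.00115). Both were lost without array 49, where TXNIP stood at 0.97 (adjusted p = 0.220) and ARRDC4 reached adjusted p = 0.0555. Of 19 glycolytic genes, ALDOC (-0.77 ± 0.18) and PFKP (-0.20 ± 0.05) were lower and 0 higher. PKM, the target of compound 16, differed by -0.19 ± 0.07 (adjusted p = 0.212). ALDOC was lost without array 49, 50 or 56 and PFKP without 49, 50, 55 or 56; with the mean of its probe sets ALDOC (-0.33) was not called.

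Of 18 p53 targets, 3 were higher and 0 lower, with a median of 0.10. BBC3 (PUMA), a trigger of apoptosis that DDIT3 and other factors also induce, had signals of 8.05, 7.97 and 7.89 without serine against 7.22 and 7.21 with serine. The groups were clearly separate, and BBC3 rose by 0.75 ± 0.08 (1.69-fold, adjusted p = 5.95e-07). TP53INP1, which promotes autophagy, rose by 0.53 ± 0.10 (adjusted p = 0.00131), and GDF15, a stress hormone, by 0.44 ± 0.09 (adjusted p = 0.00496). CDKN1A (p21), the standard p53 target, differed by 0.02 ± 0.08 (adjusted p = 0.980). BBC3 was called whichever array was left out and with the mean of its probe sets (0.46). TP53INP1 was lost without array 50 and with that mean (0.24, adjusted p = 0.254), and GDF15 without array 49.

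Smaller groups had few calls. Of 20 genes of the unfolded protein response in the endoplasmic reticulum, CRELD2, HYOU1 and DNAJB9 were higher by 0.29 to 0.31, and 0 lower; HSPA5, its central chaperone, was not called, and array 49, 50, 54 or 55 left out ended all 3 calls, array 56 all but 1. With the mean of probe sets they stood at 0.28, 0.11 and 0.12, and none was called. With each array centred on its median, HYOU1 and DNAJB9 were not called. The median of this list was 0.12, with 7 of 20 differences below 0 and 9 genes at an unadjusted p under 0.05. Of 18 genes of cholesterol synthesis, EBP (-0.46 ± 0.07), FDPS (-0.40 ± 0.06) and ACAT2 (-0.38 ± 0.07) were lower and 0 higher, and all 3 were called whichever array was left out. Of 19 interferon-stimulated genes 1 was lower, OAS1 (-0.55 ± 0.09, adjusted p = 0.000393), and of 14 heat shock genes 1, HSPA2 (-0.45 ± 0.08, adjusted p = 0.000611); both calls also stood without any 1 array, and OAS1 was still called with the mean of its probe sets (-0.35). 

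Most of the remaining lists held 1 call or none. Higher were CA12 (0.28 ± 0.05), a carbonic anhydrase, of 17 hypoxia genes, SCD5 (0.37 ± 0.09), a desaturase, of 14 genes of fatty acid synthesis, and WIPI1 (0.41 ± 0.10), an early autophagy protein, of 20 genes of autophagy and lysosome. Lower was MT2A (-0.22 ± 0.06), a metallothionein, of 13 glucocorticoid-induced genes. That list leaned the other way, with a median of 0.16 and 4 of 13 differences below 0. In it 7 genes had an unadjusted p under 0.05. The list medians for hypoxia, fatty acid synthesis, and autophagy and lysosome were 0.05, -0.02 and 0.06. CA12 was lost without array 49, WIPI1 without 49, 50, 54 or 56, SCD5 without 49, 50, 54 or 55 or with the mean of its probe sets (0.09), and MT2A whichever array was left out. By limma 0 of 19 NRF2 targets, 18 genes of ribosome biogenesis and 14 circadian genes were called, while 1, 0 and 2 had an unadjusted p under 0.05. Of 19 genes of transsulfuration and glutathione, CHAC1 was higher and CBS and CTH lower, as given above. Of 16 chemokines and cytokines, CXCL2 was higher and CCL2 lower, as given below.

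**Figure D4:**
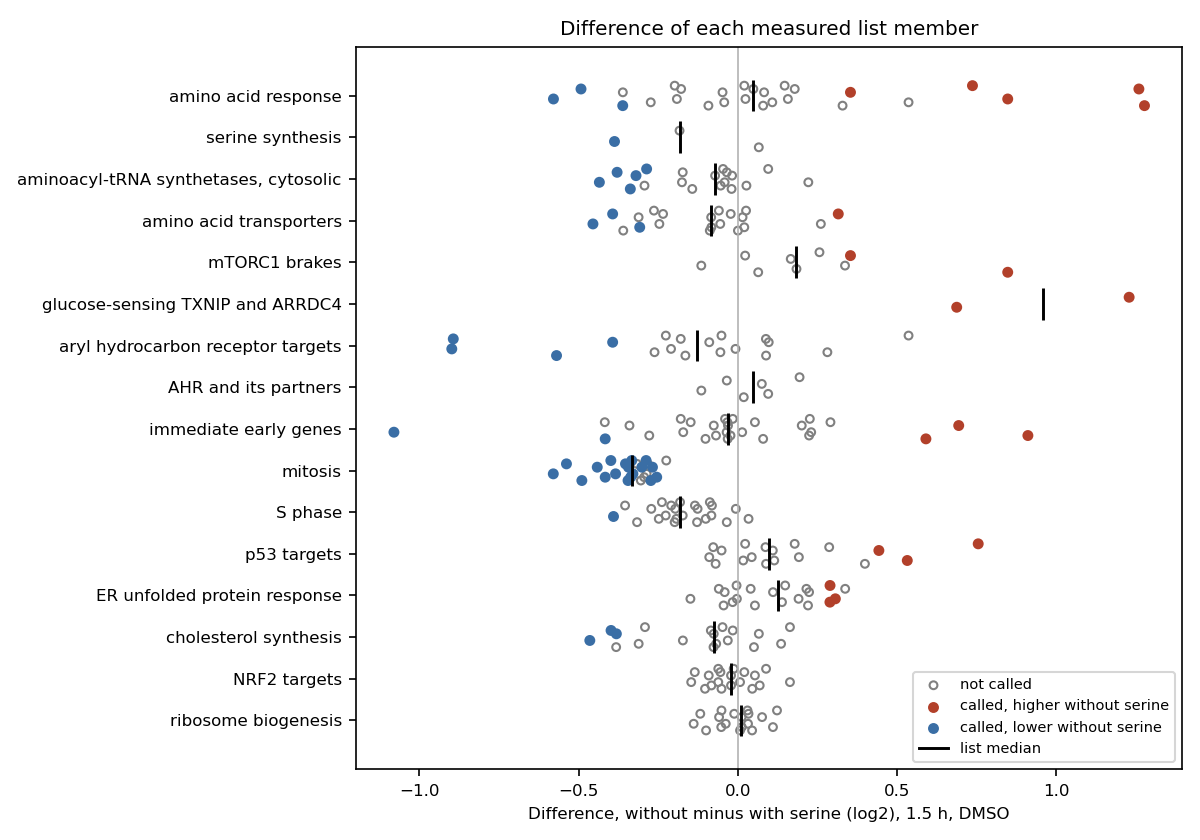
Difference between media 1.5 h after DMSO, without minus with serine (log2, horizontal axis), of each measured member of 16 gene lists (vertical axis); filled points were called (red higher, blue lower), open points were not, and black bars are list medians. All 24 mitotic genes lie left of 0, while the amino acid response and the immediate early genes have called members on both sides.

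By size, the other large rises were of TPPP3 (1.28 ± 0.25), AGTR1 (1.11 ± 0.28), AGR3 (1.08 ± 0.26), PLA1A (1.06 ± 0.20), PLCB1 (1.02 ± 0.14), FCGBP (0.98 ± 0.12), BDKRB2 (0.96 ± 0.27), NCMAP (0.94 ± 0.22), BEX2 (0.93 ± 0.14), CFB (0.90 ± 0.23) and ABCA1 (0.88 ± 0.14). AGTR1 and BDKRB2 are receptors for angiotensin II and bradykinin, PLCB1 a phospholipase C that such receptors activate, FCGBP a mucus protein and ABCA1 a cholesterol exporter. FCGBP stood at 9.76, 9.35 and 9.17 without serine against 8.37 and 8.53 with serine, and the groups did not overlap. Its effect was 1.11 ± 0.11 at 0 h, 1.02 ± 0.11 at 6 h and 0.80 ± 0.11 at 24 h. Averaged over all probe sets of the gene, PLCB1 stood at 0.38 and BDKRB2 at 0.59, both still called, while ABCA1 (0.28), NCMAP (0.31) and CFB (0.16, adjusted p = 0.659, 1 of 4 probe sets higher) were not. PLCB1, FCGBP, BEX2 and ABCA1 were called whichever array was left out; TPPP3 was lost without array 49 or 50, PLA1A without 50, NCMAP without 50 or 55, AGTR1, AGR3 and CFB without 4 of the arrays and BDKRB2 without any one of the 5.

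The other large falls were of TNNC1 (-0.97 ± 0.19), a troponin, NPTX1 (-0.89 ± 0.20), a pentraxin, CCL2 (-0.89 ± 0.25), a chemokine for monocytes, OLR1 (-0.71 ± 0.18), SNORC (-0.69 ± 0.14), GPX3 (-0.67 ± 0.17), CTSV (-0.65 ± 0.12), OGFRL1 (-0.64 ± 0.15) and EFEMP1 (-0.63 ± 0.14). Unlike CCL2, the chemokine CXCL2 rose, by 0.66 ± 0.17 (adjusted p = 0.0234). OLR1 was dim, at 4.46, 4.32 and 4.69 without serine against 4.91 and 5.49 with serine. None of these 10 genes stayed called in all 5 fits with 1 array left out: TNNC1 and CTSV were lost without array 50 and SNORC without 49, while CCL2 was lost whichever array was left out. Averaged over all probe sets, NPTX1 (-0.54), OLR1 (-0.17) and OGFRL1 (-0.41) were not called.

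Under compound 16 the same pair of media gave 327 higher and 281 lower genes at 1.5 h (1.79% and 1.54%, together 3.33%), on arrays that are all separate from the DMSO ones. There too the gap of the ACTB probe sets was higher without serine, as given above. Of the 191 genes higher in DMSO, 105 were called higher there too (54.97% of the DMSO calls and 32.1% of those under compound 16), and of the 169 lower, 60.4% were called lower (36.3% of those under compound 16). In sign alone, 181 of the 191 and 167 of the 169 matched, and 0 were called the opposite way. In DMSO at 0 h 176 and 160 matched, and 1 of the higher genes was called the opposite way. At 6 h 182 and 149 matched, and 12 of the lower genes were called the opposite way. The share of all genes that match in sign was not counted. CHAC1 rose by 1.26 ± 0.18 in DMSO and 1.68 ± 0.16 under compound 16. CYP1B1 fell by 0.90 ± 0.09 in DMSO and 0.87 ± 0.08 under compound 16, and TIPARP by 0.89 ± 0.10 and 0.73 ± 0.09. Of the 27 genes of the amino acid response, 5 were higher and 3 lower in DMSO, against 13 and 1 under compound 16.

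The difference between the effects in DMSO and under compound 16 was called for 3 genes (0.0164%), all with a smaller effect in DMSO. GDF15 stood at 10.17, 10.33 and 10.04 without serine and 9.68 and 9.80 with serine in DMSO, against 10.76, 10.87 and 11.04 without serine and 9.73, 9.62 and 9.70 with serine under compound 16. The arrays with serine were alike under both, and those without serine were lower in DMSO; the effects differed by -0.76 ± 0.12 (adjusted p = 0.00363). TSC22D3 differed by -0.77 ± 0.12 and DDIT4 by -0.57 ± 0.11. DDIT3 had an effect of 1.28 in DMSO and 2.49 under compound 16, but the difference of -1.22 ± 0.29 was not called (adjusted p = 0.232), so whether it differs was not settled by these arrays.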

How the data were processed

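The deposited values are log2 probe set signals of HG-U219 arrays that the authors made with RMA, per the submitters' processing notes; the sources used here give neither its version nor its settings. RMA subtracts background, equalizes arrays and condenses probes to 1 value, which removes a shift shared by all genes and compresses dim ones. Of 49386 probe sets, 45253 name 1 gene symbol in the platform annotation, and the others were left out. The probe set with the highest mean stood for each of 18239 genes. All 50 arrays entered 1 limma fit of 17 group means (limma 3.58.1, R 4.3.3, 33 residual and 3.7 prior degrees of freedom), without filter. Calls used p adjusted by Benjamini-Hochberg over all genes of a comparison, under 0.05. In each comparison the difference is without minus with serine, and ± is the standard error unless SD is stated. Of 496 members of 28 gene lists, 468 were measured. Members, lists and the rule for named genes were chosen with earlier results of these data known. The rule took 12 fixed genes, the 15 largest rises and falls among called genes, up to 5 each way for each difference of effects, and in each list the called members and the 3 of lowest p. Genes outside it (ATF3, TRIB3, CDKN1A, SARS1, SLC1A4, CYP1A1, AHRR, NQO1, ARNT, HSPA5 and the snoRNA hosts) were added after their values were seen. Alternatives tried were a filter on dim genes, quantile normalization, centring, fewer arrays, a trended robust prior, array weights, the mean of probe sets and leaving out each array. Scripts were tested on simulated data. Promoters are RefSeq windows.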

Additional observations from a re-analysis of the deposited data

Results flagged for a closer look

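The results below were singled out because the effect of serine lack in DMSO at 1.5 h differed from its effect elsewhere, by limma's test of the difference itself at an adjusted p under 0.05. All of them use the same 5 arrays of DMSO at 1.5 h. Values are differences of 2 effects, each without minus with serine, on the log2 scale.

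Against compound 16 at 1.5 h, the effect in DMSO was lower for GDF15 (-0.76), TSC22D3 (-0.77) and DDIT4 (-0.57), the highest adjusted p being 0.0293.

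Against 0 h in DMSO, the effect at 1.5 h was higher for CHAC1 (1.81), STC2 (1.71), SESN2 (1.03), DDIT3 (1.66), ATF4 (0.41), DUSP1 (0.75), BBC3 (0.58), MTHFD2 (0.45), DDIT4 (0.52) and HERPUD1 (0.53). It was lower for CYP1B1 (-0.88), TIPARP (-0.98), NKPD1 (-0.79), BCL3 (-0.54) and L1TD1 (-0.57). NKPD1 and L1TD1 are dim, between 3.93 and 4.17 on the 5 arrays.

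Against 6 h in DMSO, the effect at 1.5 h was higher for FOXJ3 (0.62) and PRKX (0.70). It was lower for CARS1 (-1.0), MTHFD2 (-0.91), SLC7A1 (-0.92), TIPARP (-1.29), CYP1B1 (-1.10), TRIB3 (-1.01), CBS (-1.06), MARS1 (-0.85), GARS1 (-0.79), ASNS (-0.71), TARS1 (-0.63), PSAT1 (-0.78), NUPR1 (-1.11), PCK2 (-0.83), PSPH (-0.52), AARS1 (-0.68), STC2 (-1.43), SLC1A5 (-0.56), ATF4 (-0.38), SLC1A4 (-0.67), BCL3 (-0.55), YARS1 (-0.57), KIF21B (-1.13), CLIC4 (-0.48) and EIF4EBP1 (-0.41). TIPARP, CYP1B1 and BCL3 appear against both 0 h and 6 h with the effect lower at 1.5 h in each. STC2, ATF4 and MTHFD2 also appear in both, with the effect at 1.5 h above that at 0 h and below that at 6 h. For FOXJ3 and PRKX the effect at 1.5 h itself was not called from the arrays of 1.5 h alone. Averaged over all probe sets it was 0.32 for PRKX (adjusted p = 0.125), not called, and 0.41 for FOXJ3, still called.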

How the results depend on the processing

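Of the 94 named genes called at 1.5 h in DMSO, 0 changed sign under any of 13 alternatives. Of these, 28 stayed called whichever 1 array was left out and 38 with only the arrays of 1.5 h. The 5 arrays alone leave few degrees of freedom: 1 gene was called over the whole table (TPPP3, adjusted p = 0.0423). Among all genes, 360 calls became 91 from the arrays of 1.5 h, 631 with array weights, and 84 to 257 with 1 array left out, the fewest without array 49. It was 526 without the dimmest 40% of genes, 468 with a trended robust prior, 387 with the mean of all probe sets, 350 after quantile normalization and 343 with centred arrays.

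Under compound 16, 608 became 87 from its own 6 arrays, 335 with those of 1.5 h, 922 with weights and 365 to 413 with 1 array left out. The 3 genes that differed between DMSO and compound 16 became 7 without dim genes, 0 from its own arrays or from those of 1.5 h, 8 with the trended prior, 13 with weights and 1 to 4 with 1 array left out. Between 1.5 h and 0 h, 15 became 6 from its own arrays and 4 to 11 with 1 left out. Between 1.5 h and 6 h, 27 became 10 and 19 to 25. At 0 h alone, 1076 became 6 and 696 to 865, and at 6 h 580 became 25 and 304 to 452. The number of arrays limits the precision, and the causes of these shifts, apart from fewer arrays in the fit, were not tested. No paired analysis was possible because no title number is shared between groups.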

Other observations

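Host genes of small nucleolar RNAs were looked at after their values were seen, because SNHG32 had the lowest p of all genes. SNHG32 stood at 11.62, 11.66 and 11.61 without serine (arrays 54, 55 and 56), against 11.05 and 11.03 with serine (arrays 49 and 50), a difference of 0.59 ± 0.05 (adjusted p = 2.27e-09). The groups were far apart for their spread. It was 0.67 under compound 16, 0.55 at 0 h and 0.49 at 6 h. Of 12 measured hosts taken by name (SNHG genes, ZFAS1 and EPB41L4A-AS1), 3 were called higher and 0 lower, with a median of 0.21. The 3 were SNHG32, EPB41L4A-AS1 (0.41 ± 0.07) and SNHG7 (0.40 ± 0.06). Of all genes, 1.05% were called higher and 0.927% lower. SNHG32 prompted the look and is counted among the 3, so the count only describes these genes. Other snoRNA hosts were not counted. ZFAS1 (0.32 ± 0.10, adjusted p = 0.0773) was not called. SNHG17 stood at -0.32 ± 0.15 and SNHG9 at -0.29 ± 0.12, so the hosts did not all lie on 1 side. The 3 calls stood whichever array was left out, but with the mean of all probe sets of a gene SNHG7 stood at 0.10 (adjusted p = 0.782) and was not called.

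BCL3, a partner of NF-kB subunits, fell by 0.62 ± 0.08 in DMSO at 1.5 h (adjusted p = 1.79e-05). Its signals were 9.86, 9.71 and 9.76 without serine against 10.38 and 10.41 with serine, and the groups did not overlap. With the mean of all its probe sets the difference was -0.21 (adjusted p = 0.226) and was not called. Under compound 16 the difference was -0.09 ± 0.08, at 0 h -0.08 ± 0.08 and at 6 h -0.07 ± 0.08. The test of DMSO against compound 16 missed the threshold (-0.53 ± 0.11, adjusted p = 0.0938).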
